A study of Mus musculus with 25 samples.

Results

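The IL-12, IL-15, IL-18 and IL-27 axis was followed through 10 genes in 25 mouse melanomas. Its members were the rows of the deposited gene count table whose symbol was Il12b, Il12rb1, Il12rb2, Il15, Il15ra, Il18, Il18r1, Il27, Ebi3 or Il2rg, which made 10 of 55450 genes. The tumours grew from B2905, a mouse melanoma line also called M4, in 40 implanted C57BL/6 mice, and antibody was started at an average tumour size of 75 mm3. By the design, 5 mice were untreated, 5 received the isotype antibody IgG2b and 30 an antibody against CTLA-4, an inhibitory receptor of T cells. Each antibody was given at 10 mg/kg. The samples were the 5 IgG2b tumours, here the controls, and 20 anti-CTLA-4 tumours. The other mice of the 30 are not among the samples. By the outcome in the labels, set 10 to 11 days after the last dose, the anti-CTLA-4 tumours comprised 6 non-responders that kept growing, 6 stable tumours and 8 responders that shrank. All groups therefore shared the host strain and a single implanted line, the labels name no engineered allele, and the untreated mice were not analysed here. The groups were set by tumour growth after treatment, so a difference between them is not an effect of a randomised treatment, and each tumour was 1 sample.

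IL-12, IL-15, IL-18 and IL-27 are cytokines made largely by dendritic cells, macrophages and other stromal cells, and they act on T cells and natural killer (NK) cells. IL-12 and IL-27 are dimers, built from the products of Il12b and Il12a and of Ebi3 and Il27, and both signal through Janus kinases and STAT proteins. IL-15 is held on the presenting cell by the receptor chain Il15ra and read by the chains Il2rb and Il2rg on the responding cell, whereas IL-18 is released after cleavage by caspase-1 and signals through Il18r1, Il18rap and the adaptor MyD88.

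The 3 members higher in responders than in non-responders were all receptor genes, Il12rb2, Il15ra and Il18r1. Their sequence before an annotated start is shown because it is where binding motifs of transcription factors would be looked for. Where a gene had other windows, the window with a match is shown. RefSeq promoter windows (build GRCm38.p6) were matched for 7 of the 10 members. The genes lie at chr6:67291318-67376188 (Il12rb2), chr1:40465552-40500854 (Il18r1) and chr2:11705290-11734317 (Il15ra) in GRCm38. For Il12rb2 the stretch lies at chr6:67376189-67376438 on the minus strand, just before the gene. For Il18r1 it lies at chr1:40465811-40465969 and for Il15ra at chr2:11705579-11705711, both on the plus strand, inside the gene between annotated exons and before a later start. The capitals mark a motif match, TTCNNNGAA (the GAS element bound by STAT proteins) in the sequences of Il12rb2 and Il18r1, and TGANTCA (the AP-1 element) in that of Il15ra.
Il12rb2: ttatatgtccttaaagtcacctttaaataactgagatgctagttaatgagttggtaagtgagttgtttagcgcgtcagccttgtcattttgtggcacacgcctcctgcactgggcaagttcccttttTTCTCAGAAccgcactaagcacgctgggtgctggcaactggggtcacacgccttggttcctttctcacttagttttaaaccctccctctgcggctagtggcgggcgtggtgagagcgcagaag
Il18r1: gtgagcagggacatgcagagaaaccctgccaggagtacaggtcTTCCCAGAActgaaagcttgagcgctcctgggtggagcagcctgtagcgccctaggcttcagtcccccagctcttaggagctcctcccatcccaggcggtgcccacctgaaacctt
Il15ra: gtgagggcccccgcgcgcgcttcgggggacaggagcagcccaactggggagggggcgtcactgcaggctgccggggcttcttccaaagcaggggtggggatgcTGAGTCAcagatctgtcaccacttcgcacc

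On both strands, 7.02% of 32851 RefSeq windows of the 250 bases before a start held TTCNNNGAA and 6.75% held TGANTCA. The ISRE core (GAAA and GAAA with any 2 bases between) was held by 2.98%, and a kappaB motif (GGG and TTTCC with any 2 bases between) by 1.41%. Among the 10 windows of the 7 matched members, the only matches were those shown and another TTCNNNGAA further upstream in the same Il18r1 window. Il18r1 and Il15ra also had windows before earlier starts, which are not shown and held no match. These lay at chr1:40465302-40465551 and chr1:40465371-40465620 for Il18r1 and at chr2:11705043-11705292 for Il15ra. A match is a description of these letters and does not show binding.

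The depth was 8.76 to 34.3 M estimated counts per tumour. Protein-coding genes held 82.9% to 89.2% of the counts in controls, non-responders and stable tumours but 23.8% to 74.3% in 7 of the 8 responders, and 87.0% in responder 5. Summed melanocytic markers (6 genes, among them Mlana, Dct and Tyr) were present in every group, and no marker was at 0 in any group. Their means were 10273 CPM (counts per M counts) in controls, 3502 CPM in non-responders, and 307 and 367 CPM in the stable and responder groups. The non-responders were not alike in this: non-responders 1, 2 and 3 had 2973, 5604 and 10609 CPM, and non-responders 4, 5 and 6 had 739, 606 and 482 CPM. The labels number the libraries group by group, and whether that number is a processing order is not stated. If it is, processing order and group cannot be told apart. Levels are given as CPM scaled by TMM factors. The detection limit was set at 3 counts in a library, which is 0.0822 to 0.669 CPM after scaling. The highest limit was that of responder 1, whose 13.2 M counts had a TMM factor of 0.339, beside 0.818 to 1.19 in the other tumours. This factor raises every CPM of responder 1 above its plain counts per M counts.

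Against controls, the axis was higher under anti-CTLA-4 in every outcome group. By edgeR's quasi-likelihood test over 18031 genes (Benjamini-Hochberg adjusted p under 0.05), 9 of the 10 members were higher in stable tumours, 8 in responders and 8 in non-responders, and none was lower. The background was 41.8% of all genes called in either direction for stable tumours (22.2% higher), 65.0% for responders (36.1% higher) and 13.9% for non-responders (10.6% higher). The median log2 difference of the members was 3.02 in stable tumours, 2.51 in responders and 1.94 in non-responders, beside medians over all genes of 0.02, 0.16 and 0.04. The ranges of CPM did not overlap those of the controls for all 10 members in stable tumours (35.5% of all genes), for 7 in responders (30.0%) and for 1, Il15ra, in non-responders (4.08%). These are ranges of scaled CPM, so those of the responders depend on the TMM factor of responder 1. The 3 comparisons share the same 5 controls. Each value is from bulk tissue, in which fewer cells of a type and less RNA per cell cannot be told apart. Summed T-cell markers (Cd3d, Cd3e, Cd3g, Cd4, Cd8a, Cd8b1) moved in the same way, with 6.93 to 21.9 CPM in the control group, 18.3 to 158 in the non-responder group, 105 to 179 in the stable group and 69.1 to 195 in the responder group. All 6 were called higher in each group, as were all 4 NK-cell markers, and their part in the members' differences was not tested.

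**Figure D1:**
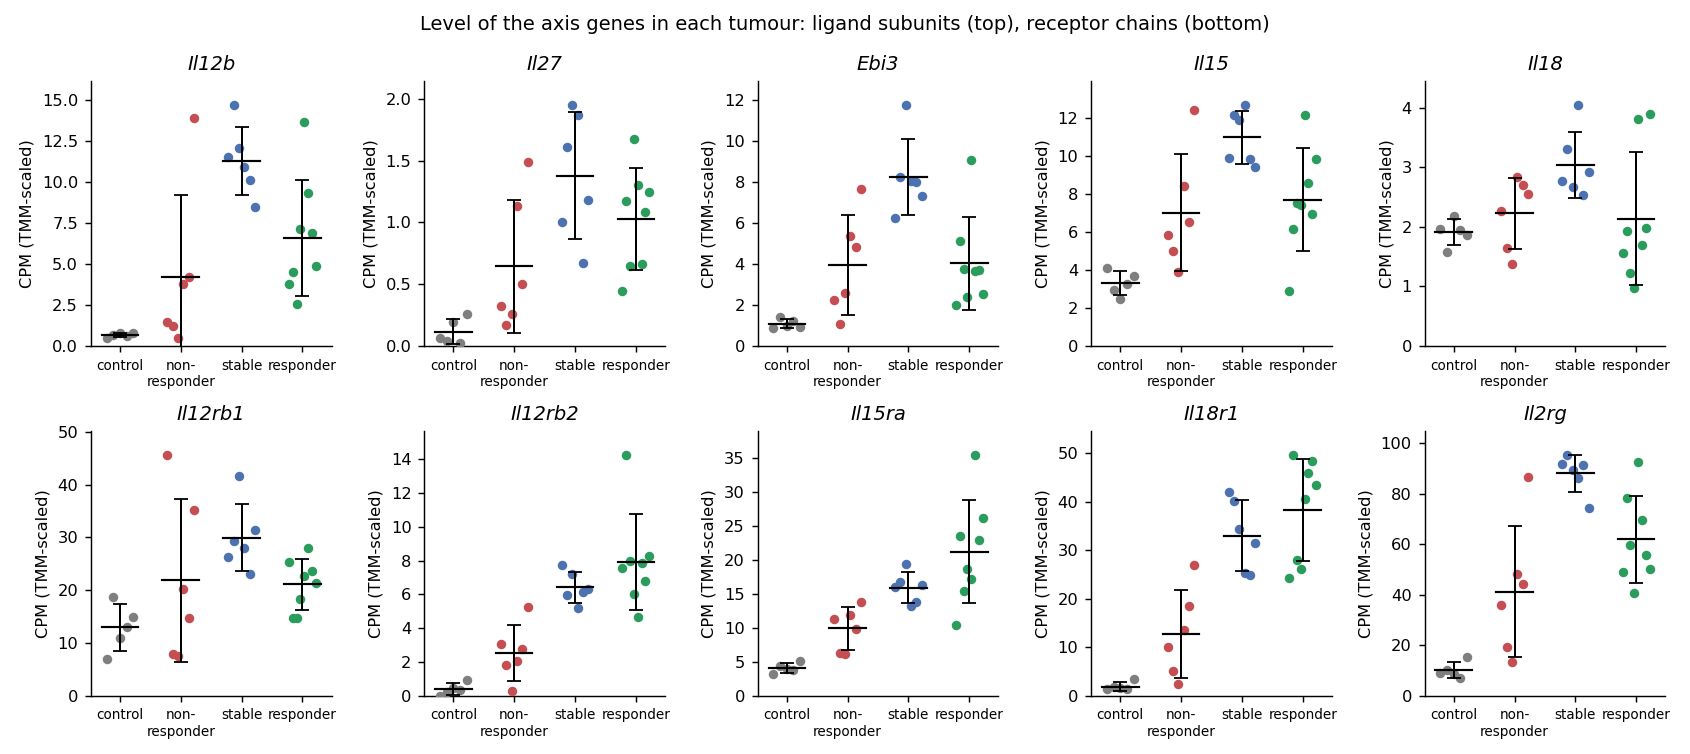
Level of each axis gene in every tumour, in TMM-scaled CPM on a linear axis that starts at 0, by group; each point is a tumour and the bars give the group mean and SD. Il12rb2 and Il18r1 lie highest in responders and stable tumours, whereas Ebi3 and Il2rg peak in the stable group.

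**Figure D2:**
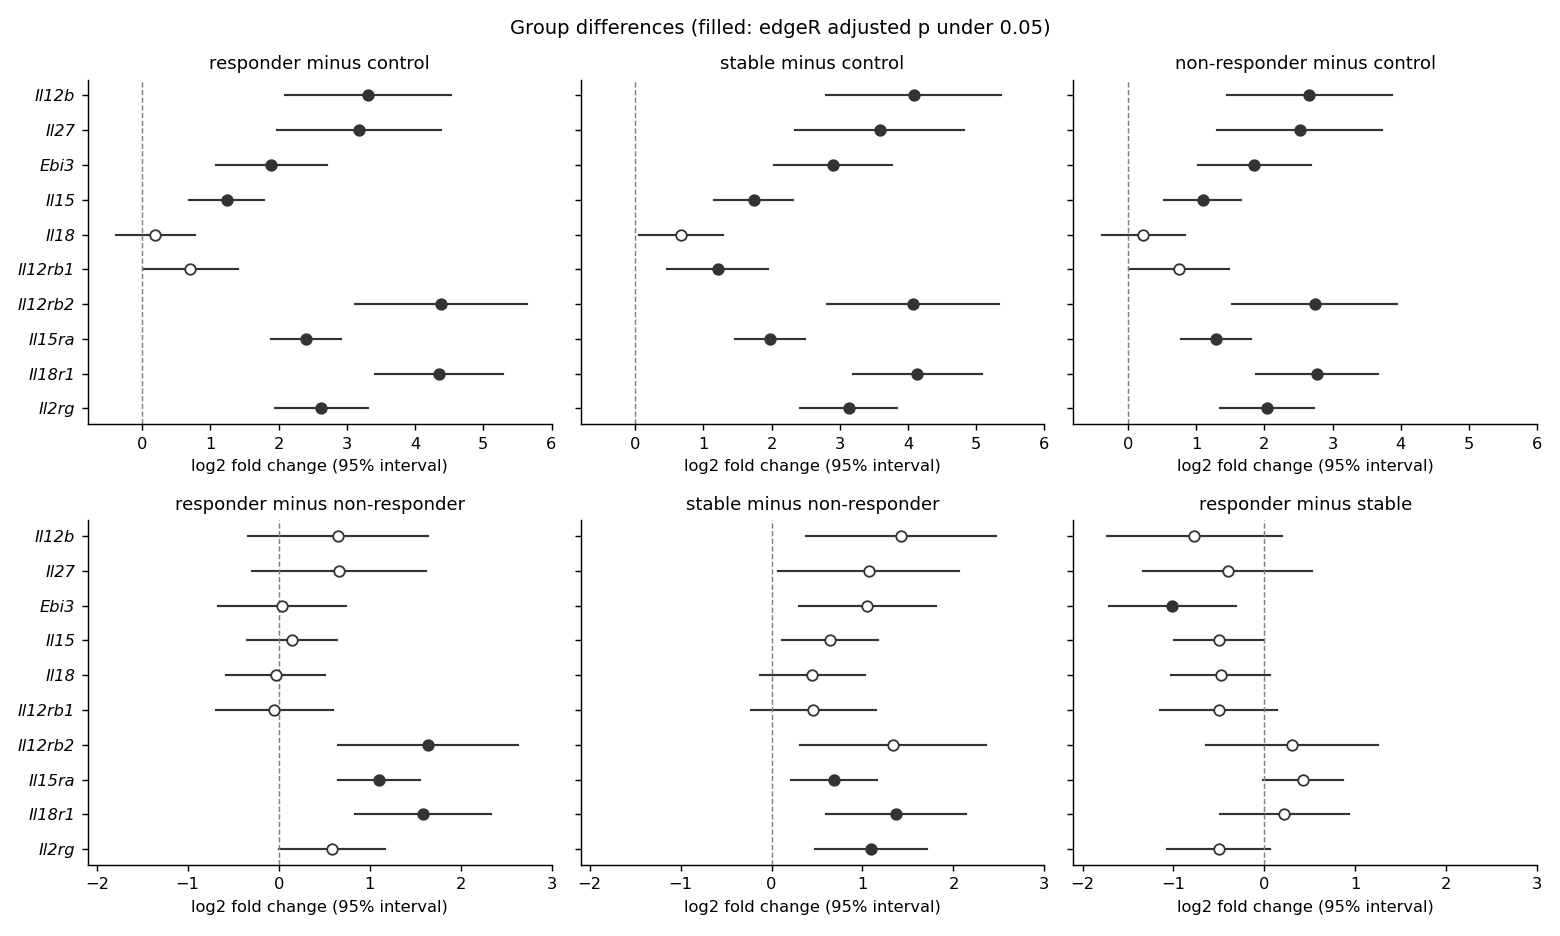
Log2 fold change of each axis gene in the 6 comparisons, with 95% intervals; filled points passed edgeR at an adjusted p under 0.05. Of the 10 genes, 8 or 9 passed against controls, 3 between responders and non-responders, 3 between stable tumours and non-responders, and 1 between responders and stable tumours.

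Between the outcome groups fewer members were called. Il12rb2, Il15ra and Il18r1 were higher in responders than in non-responders, a count of 3 of 10 with none lower. Over all genes 48.9% were called in that comparison (25.2% higher), so the members' share lay near the background. In stable tumours, Il15ra, Il18r1 and Il2rg were higher than in non-responders, again 3 of 10 with none lower, beside 14.9% of all genes called (7.08% higher). Between responders and stable tumours only Ebi3 was called, as lower in responders, beside 38.2% of all genes (17.8% lower), a smaller share than the background. The members' median log2 difference was 0.62 for responders minus non-responders, 1.06 for stable minus non-responder tumours and -0.49 for responders minus stable tumours, while the medians over all genes were 0.05, -0.02 and 0.01. In these 3 comparisons the ranges of the 2 groups overlapped for all 10 members, as they did for most genes (the ranges were apart for 5.00%, 5.01% and 0.715% of them). Of the 6 T-cell markers, 1 was called higher in responders and 1 in stable tumours than in non-responders, and their median log2 difference was 0.42 and 0.86 there and -0.43 for responders minus stable tumours. Their part in the members' differences was not tested.

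A single tumour moved these counts. Without non-responder 6, 5 members were called higher in responders than in non-responders (Il12b at 1.55 on the log2 scale and Il2rg at 0.95 in addition), and 8 in stable tumours than in non-responders, among them Il12b (2.32), Il15 (0.89), Il27 (1.50) and Ebi3 (1.35). That tumour had the highest level of its group for 8 of the 10 members, and its Il2rg level of 86.5 CPM lay inside the stable range. Between responders and stable tumours, 3 members were called without responder 5 (Ebi3, Il15 at -0.62 and Il18 at -0.65), 2 without responder 1 (Il15ra at 0.53 in addition), 2 without responder 8 (Il18 at -0.66 in addition), and 0 without stable tumour 3.

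Il12b, the subunit that IL-12 shares with IL-23, was low in controls, at 0.466, 0.663, 0.782, 0.630 and 0.776 CPM. It ranged from 0.515 to 13.9 CPM (median 2.63) among non-responders, from 8.46 to 14.7 (median 11.2) among stable tumours and from 2.57 to 13.6 (median 5.85) among responders. All stable tumours and responders lay above all controls, and the non-responders spread over both, with non-responder 3 inside the control range. The log2 fold change against controls was 4.08 (SE 0.62, edgeR adjusted p = 1.41e-05) in stable tumours, 3.31 (SE 0.59, adjusted p = 4.28e-05) in responders and 2.66 (SE 0.59, adjusted p = 0.00341) in non-responders. The last value was 1.76 without non-responder 6 and remained called, but it was not called by limma on log2(RPKM + 1) (0.94, adjusted p = 0.0521). Stable tumours differed from non-responders by 1.42 (95% interval 0.37 to 2.47, adjusted p = 0.0602), the largest of the members' values in that comparison. It passed with the stricter filter, both limma fits and DESeq2 (adjusted p = 0.025), without non-responder 6 (2.32, adjusted p = 0.000673) and without responder 5 (1.42, adjusted p = 0.0486). Responders minus non-responders gave 0.65 (95% interval -0.33 to 1.64, adjusted p = 0.259), which passed without non-responder 6 (1.55) and with limma on log2(RPKM + 0.1). Responders differed from stable tumours by -0.77 (95% interval -1.73 to 0.19, adjusted p = 0.19), and 6 of 8 responders were under the whole stable range.

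The other IL-12 subunit, Il12a, was scarce. Summed over each group it gave 6 counts (controls), 13 (non-responders), 66 (stable) and 85 (responders). In summed CPM the controls had 0.0433 (exact Poisson 95% interval 0.0159 to 0.0943) and the non-responders 0.0973 (0.0518 to 0.166), whereas the stable group had 0.572 (0.442 to 0.728) and the responders 0.783 (0.625 to 0.968). The intervals cover counting error only, and 2 controls, 3 non-responders and 1 responder had no count. For Il12a, responders exceeded non-responders by 2.98 on the log2 scale (edgeR adjusted p = 0.00368). Il23a, the partner of Il12b in IL-23, gave 20, 17, 4 and 8 counts in controls, non-responders, stable tumours and responders, too few to be tested.

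Il12rb2 is the signalling chain of the IL-12 receptor, which activated T and NK cells put on their surface. It was at 0, 0.221, 0.469, 0.329 and 0.931 CPM in the controls. Non-responders ranged from 0.258 to 5.23 CPM (median 2.42), stable tumours from 5.17 to 7.76 (median 6.23) and responders from 4.67 to 14.3 (median 7.70). Every responder and stable tumour lay above every control, and 7 of 8 responders lay above all non-responders, the exception being responder 5. The log2 difference was 4.38 (SE 0.61, edgeR adjusted p = 2.56e-06) for responders minus controls, and 4.07 and 2.74 for stable and non-responder tumours, the last not called in a fit of those 2 groups alone (2.70, adjusted p = 0.0564). Against non-responders, responders were higher by 1.64 (SE 0.48, adjusted p = 0.00787), and this was not called once the protein-coding share was a covariate (1.63, adjusted p = 0.0768). The stable tumours differed from non-responders by 1.34 (95% interval 0.31 to 2.36, adjusted p = 0.071), which passed with DESeq2 (adjusted p = 0.0198), both limma fits, without control 1 (adjusted p = 0.0313) and without non-responder 6 (1.69, adjusted p = 0.0204). Responders minus stable tumours gave 0.31 (adjusted p = 0.614), which passed in both limma fits (0.46 and 0.64, adjusted p = 0.0119 and 0.0253).

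Il12rb1, the other chain of that receptor and also part of the IL-23 receptor, was far less graded. Controls had 6.96, 18.8, 10.9, 13.1 and 15.0 CPM, non-responders 7.60 to 45.6 (median 17.4), stable tumours 23.1 to 41.6 (median 28.6) and responders 14.7 to 28.0 (median 22.0). The stable tumours lay above all controls, and the highest level of all 25 tumours was that of non-responder 1. The stable tumours were called higher than controls, by 1.21 (SE 0.36, edgeR adjusted p = 0.00834). The responders' difference from controls was 0.71 (95% interval 0.01 to 1.40, adjusted p = 0.0705), so whether it was called depended on the fit. It passed with the stricter filter (0.84), in a fit of the 2 groups alone (0.61, adjusted p = 0.0266), in both limma fits (0.73 and 0.90), without control 2 (0.87) and without non-responder 1, 2 or 3 (0.71 in each). The non-responders' difference of 0.75 (adjusted p = 0.163) passed without non-responder 3 (0.93, adjusted p = 0.0443). Responders minus stable tumours gave -0.50 (adjusted p = 0.2), which passed in a fit of those 2 groups alone (-0.47, adjusted p = 0.0445).

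Il15, the cytokine that sustains NK cells and memory CD8+ T cells, had 4.10, 2.95, 2.46, 3.26 and 3.67 CPM in controls. It rose against controls in all 3 groups, by 1.74 (SE 0.28, edgeR adjusted p = 2.58e-05) in stable tumours, 1.24 (SE 0.26, adjusted p = 0.000308) in responders and 1.09 (SE 0.27, adjusted p = 0.00887) in non-responders. Its range was 3.87 to 12.4 CPM among non-responders, 9.39 to 12.7 among stable tumours and 2.90 to 12.1 among responders. Responder 1, with 13 counts and the lowest protein-coding share (23.8%), was the only responder within the control range. Responders differed from stable tumours by -0.50 (95% interval -0.99 to -0.01, adjusted p = 0.0974), and the difference passed only without responder 5 among the leave-one-out fits. Stable tumours minus non-responders gave 0.64 (adjusted p = 0.0924), which passed with the covariate, with DESeq2 (adjusted p = 0.048), without non-responder 6 (0.89) and without responder 1 (0.64, adjusted p = 0.0466).

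Il15ra, the chain that binds IL-15 and presents it to neighbouring cells, had its lowest median in controls and its highest in responders. Controls had 3.20, 4.34, 3.87, 3.72 and 5.12 CPM. Non-responders ranged from 6.14 to 13.9 CPM (median 10.6), stable tumours from 13.3 to 19.4 (median 16.1) and responders from 10.5 to 35.5 (median 20.8). Every anti-CTLA-4 tumour lay above every control, and Il15ra was the only member for which the non-responders did so. The log2 difference from controls was 2.40 (SE 0.25, edgeR adjusted p = 1.22e-07) in responders, 1.98 in stable tumours and 1.29 in non-responders. Responders were higher than non-responders by 1.11 (SE 0.22, adjusted p = 0.000454), a call kept in all alternatives run. Stable tumours were higher than non-responders by 0.69 (SE 0.23, adjusted p = 0.043). This last call was lost in 10 of the leave-one-out fits, those without control 4, non-responder 1, 2, 3 or 5, or stable tumour 1, 2, 3, 4 or 6, in which the adjusted p reached 0.114 while the difference stayed between 0.58 and 0.81 over all such fits. The same call was lost without the low-count filter (0.65, adjusted p = 0.0674) and in both limma fits (0.52 and 0.61, adjusted p = 0.0769 and 0.0683).

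Il2rg, the common gamma chain through which IL-2, IL-7, IL-15 and other cytokines signal in lymphocytes, had the highest mean of the members per kilobase of exon in every group. Controls had 9.13, 10.2, 8.64, 7.12 and 15.3 CPM. Non-responders ranged from 13.3 to 86.5 CPM (median 40.0), stable tumours from 74.2 to 95.3 (median 90.3) and responders from 40.5 to 92.6 (median 57.8). The stable tumours lay close together and above all but non-responder 6 of the non-responders, and responder 5 was the highest responder. The log2 difference from controls was 3.13 (SE 0.35, edgeR adjusted p = 8.21e-07) in stable tumours, 2.63 in responders and 2.04 in non-responders. Stable tumours were higher than non-responders by 1.09 (SE 0.30, adjusted p = 0.0171), which a fit of the 2 groups alone did not call (adjusted p = 0.0564). Responders differed from non-responders by 0.59 (95% interval 0.01 to 1.17, adjusted p = 0.0847), which passed with the stricter filter, both limma fits and without non-responder 6 (0.95), and from stable tumours by -0.50 (-1.07 to 0.06, adjusted p = 0.148). A fit of responders and stable tumours alone called that last difference (-0.47, adjusted p = 0.0338).

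Il18, which keratinocytes and myeloid cells make as a precursor, differed least from controls among the members. It had 1.97, 1.58, 2.19, 1.94 and 1.86 CPM in controls, 1.37 to 2.83 (median 2.41) among non-responders, 2.54 to 4.04 (median 2.84) among stable tumours and 0.977 to 3.90 (median 1.82) among responders. The stable tumours lay above all controls, and the responders lay both above and below them. No comparison called Il18 in the fit of all tumours, and its largest difference was 0.67 for stable tumours minus controls (95% interval 0.06 to 1.28, edgeR adjusted p = 0.0721), which passed in a fit of those 2 groups alone (0.68, adjusted p = 0.00786), both limma fits (adjusted p = 0.0447 and 0.0445), without responder 5 (0.67, adjusted p = 0.0474) and without responders 1 and 4 (0.69, adjusted p = 0.0467). The responders' difference from controls was 0.19 (95% interval -0.39 to 0.77). Keratinocyte markers (Krt5, Krt14, Krt10, Krt1, Dsg1a) varied from 0.539 to 1382 summed CPM among the responders, beside 7.90 to 139 in stable tumours, and their part in the spread of Il18 was not tested.

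Il18r1, the chain that binds IL-18 on T and NK cells, was among the members that differed most from controls. Controls had 1.30, 1.77, 1.64, 1.37 and 3.41 CPM. Non-responders ranged from 2.36 to 27.0 CPM (median 11.8), stable tumours from 24.8 to 41.9 (median 33.0) and responders from 24.3 to 49.7 (median 42.1). All stable tumours and responders lay above all controls, and 6 of 8 responders lay above all non-responders. The log2 difference from controls was 4.36 (SE 0.46, edgeR adjusted p = 1.28e-07) in responders, 4.14 in stable tumours and 2.77 in non-responders. Against non-responders it was 1.59 (SE 0.36, adjusted p = 0.00135) in responders, kept in all alternatives, and 1.37 (SE 0.37, adjusted p = 0.0169) in stable tumours, not called in a fit of those 2 groups alone (adjusted p = 0.0595). Responders and stable tumours differed by 0.22 (95% interval -0.49 to 0.93, adjusted p = 0.633).

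Il27 encodes the cytokine-like subunit of IL-27, and its counts were the lowest of the axis. Controls had 2, 1, 5, 1 and 5 counts, of which 3 libraries were at or under the limit of 3 counts, and the group sum was 0.101 CPM (exact Poisson 95% interval 0.0553 to 0.170). The group sums were 0.696 CPM (0.562 to 0.852) for non-responders, 1.40 (1.19 to 1.63) for stable tumours and 1.07 (0.883 to 1.28) for responders. All stable tumours and responders lay above all controls in CPM, but responder 1 had only 2 counts (0.446 CPM, under its limit of 0.669), fewer than controls 3 and 5. The log2 difference from controls was 3.58 (SE 0.60, edgeR adjusted p = 3.98e-05) in stable tumours, 3.18 (SE 0.58, adjusted p = 6.11e-05) in responders and 2.52 (SE 0.59, adjusted p = 0.00539) in non-responders. By edgeR no difference among the anti-CTLA-4 groups was called, with values of 0.66, 1.07 and -0.41 for responders minus non-responders, stable minus non-responders and responders minus stable tumours. The second of these passed without non-responder 6 (1.50, adjusted p = 0.0302). Limma on log2(RPKM + 1) called the first (0.73, adjusted p = 0.00183) and the second (0.60, adjusted p = 0.0264), as did limma on log2(RPKM + 0.1). The deposited Il27 RPKM was 2.16 times the value from counts in responders but 1.16 times in non-responders. The part of this in the limma calls was not tested.

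Ebi3, the receptor-like subunit of IL-27 that is also a subunit of IL-35, was the only member called between responders and stable tumours. Controls had 0.899, 1.44, 0.977, 1.23 and 0.931 CPM. Non-responders ranged from 1.08 to 7.68 CPM (median 3.70), stable tumours from 6.23 to 11.8 (median 8.02) and responders from 2.01 to 9.07 (median 3.69). The responders lay near the non-responders, and 7 of 8 were under the whole stable range, responder 5 being the exception. The log2 difference from controls was 2.91 (SE 0.42, edgeR adjusted p = 7.83e-06) in stable tumours, 1.89 in responders and 1.85 in non-responders. Responders were lower than stable tumours by 1.01 (log2 -1.01, SE 0.34, adjusted p = 0.0224). This call did not hold once the protein-coding share was a covariate (-0.46, adjusted p = 0.611), without responders 1 and 4, the 2 of lowest protein-coding share (-0.83, adjusted p = 0.0845), and without stable tumour 3 (-0.89, adjusted p = 0.0564). Stable tumours minus non-responders gave 1.05 (95% interval 0.30 to 1.81, adjusted p = 0.0526), which passed in most other settings: RLE factors, the stricter filter, the covariate (1.02, adjusted p = 0.0335), protein-coding genes only, both limma fits, DESeq2 (adjusted p = 0.0244) and without responders 1 and 4. It also passed without non-responder 4 (1.16) or 6 (1.35), or responder 1 or 5 (1.05 in each). Macrophage markers (Adgre1, Csf1r, Cd68, Mertk, Ly6c2) summed to 824 to 1399 CPM in stable tumours and 442 to 1134 in responders, with 2 of 5 called lower and 1 higher in responders. Dendritic-cell markers (Xcr1, Clec9a, Flt3, Ccr7, Fscn1, Itgae, Cd209a) summed to 100 to 176 CPM in stable tumours and 74.0 to 146 in responders. Of these, 3 of 7 were called lower in responders and none higher. Over all genes 17.8% were called lower, and the part of either list in the Ebi3 difference was not tested.

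Per kilobase of exon, Il2rg had the highest mean in every group, with 4.22 CPM per kb (SD 1.31, n = 5) in controls and 36.9 (SD 3.10, n = 6) in stable tumours. Among the controls only 3 of 5 had more Il2rg than Il12rb1. Il12rb1 came next in controls, non-responders and stable tumours, at 3.15, 5.32 and 7.29 CPM per kb. In stable tumours it was not separate from Ebi3 at 7.16, and only 2 of 6 tumours had more Il12rb1 than Ebi3. In responders the second place was held by Il18r1, at 7.95 CPM per kb (SD 2.19, n = 8), above Il12rb1 (5.15, SD 1.18) in 7 of 8 tumours. In controls Il18 had rank 3, at 1.85 CPM per kb, and Il18r1 rank 7, at 0.394. Il27 and Il12rb2 held the last places in controls, non-responders and stable tumours, and Il27 and Il18 those in responders.

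Ratios of members within a tumour use no library scaling, so 5 pairs were compared, chosen after the levels had been seen. A ratio of few counts still depends on depth through the 0.5 added to each count. An example is Il12rb2 to Il12rb1 in control 1, at -8.71 with 0 counts of Il12rb2. Each ratio was the log2 of (counts + 0.5), over 6 comparisons, which made 30 two-sided exact permutation tests adjusted together. The Il15ra to Il15 log2 ratio was 1.47 ± 0.52 (SD, n = 8) in responders, 0.54 ± 0.26 (n = 6) in stable tumours and 0.53 ± 0.28 (n = 6) in non-responders. Responders were higher than stable tumours by 0.94 (exact p = 0.00266, adjusted p = 0.0127) and than non-responders by 0.94 (exact p = 0.00466, adjusted p = 0.0127), and 7 of 8 lay above all tumours of either group. The exception was responder 5, at 0.50, the responder whose protein-coding share lay in the range of the other groups. Deposited RPKM gave 0.78 and 0.91 for the same 2 differences. Stable tumours and non-responders differed by 0.00 (exact p = 0.983).

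The Il18r1 to Il18 ratio differed at each step, with a log2 of -0.10 ± 0.61 (n = 5) for controls, 2.16 ± 0.91 (n = 6) for non-responders, 3.42 ± 0.44 (n = 6) for stable tumours and 4.23 ± 0.56 (n = 8) for responders. All 8 responders lay above all non-responders (difference 2.07, exact p = 0.000666, adjusted p = 0.00932). The difference of 0.81 from stable tumours (exact p = 0.018, adjusted p = 0.0317) lost its call in 8 leave-one-out sets, those without stable tumour 4, 5 or 6 or responder 2, 3, 4, 6 or 7, with adjusted p up to 0.0599. The Il12rb2 to Il12rb1 ratio was higher in responders (-1.44 ± 0.69, n = 8) than in stable tumours (-2.20 ± 0.30, n = 6) by 0.76 (exact p = 0.00866, adjusted p = 0.02), and than in non-responders (-3.19 ± 1.00, n = 6) by 1.75 (exact p = 0.00133, adjusted p = 0.00932). The Ebi3 to Il27 ratio was lower in responders (1.86 ± 0.78, n = 8) than in non-responders (2.70 ± 0.43, n = 6), by -0.83 (exact p = 0.0273, adjusted p = 0.0455). This was lost in 9 leave-one-out sets, those without non-responder 1, 2, 3 or 5 or responder 1, 2, 4, 7 or 8, with adjusted p up to 0.091. The Il12b to Il12rb1 ratio was higher in stable tumours (-1.40 ± 0.36, n = 6) than in non-responders (-2.83 ± 1.33, n = 6) by 1.43 (exact p = 0.0173, adjusted p = 0.0317), lost in 7 sets, those without non-responder 1, 2, 3 or 4 or stable tumour 1, 2 or 5, with adjusted p up to 0.0611. For responders minus non-responders it was 1.02 (exact p = 0.0946, adjusted p = 0.123). Responder 5 was also the lowest responder for the Il18r1 to Il18 ratio (3.40) and the Il12rb2 to Il12rb1 ratio (-2.27). It was the highest for the Ebi3 to Il27 ratio (2.78) and the Il12b to Il12rb1 ratio (-0.74). The ratios say that the members of a pair changed unequally, not which of them changed.

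**Figure D3:**
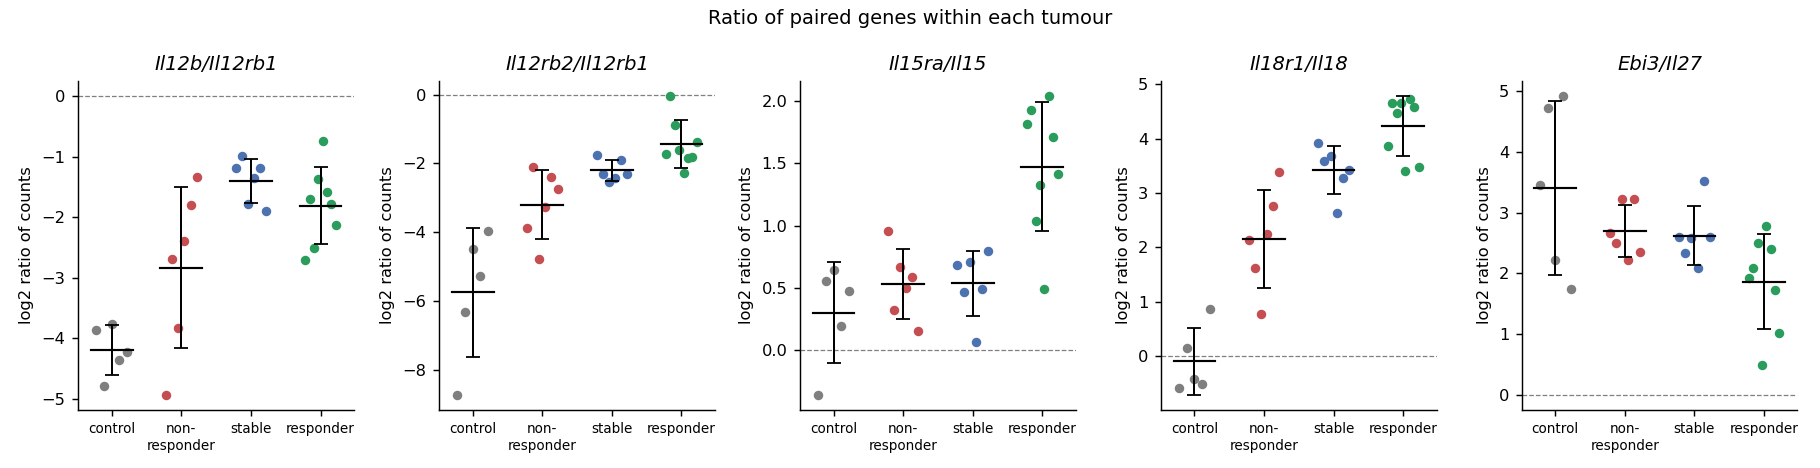
Log2 ratio of the counts of 5 member pairs in each tumour, by group; points are tumours and bars the group mean and SD. The Il15ra to Il15 ratio of 7 of 8 responders lies above every stable and non-responder tumour, and the Il18r1 to Il18 ratio has a higher mean at each step from controls to responders.

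The partners and signalling proteins of the axis were given by a list of 22 genes, of which 21 could be tested (not Il23a). Against controls, 18 were higher in stable tumours, 15 in responders and 8 in non-responders, with none lower, beside the 22.2%, 36.1% and 10.6% of all genes called higher there. In responders against non-responders 7 were higher and 1 lower, a share near the 25.2% of all genes called higher, with a median of 0.17 beside 0.05 over all genes. The 8 calls fell to 5 without non-responder 2 or 3 or responder 6 or 7. Among them were Il18rap, the signalling chain of the IL-18 receptor, at 1.67 (edgeR adjusted p = 0.000409), and Jak3, the kinase bound to Il2rg, at 1.37 (adjusted p = 2.87e-05). Tyk2, a kinase of the IL-12 and IL-27 receptors, was higher by 0.70 (adjusted p = 0.000154). Il12a, Il18rap, Jak3 and Tyk2 kept this call in every alternative that tested them. Il18rap ranged from 3.87 to 31.9 CPM in non-responders and from 42.6 to 67.8 in responders, so that these 2 groups did not overlap.

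In stable tumours against non-responders 10 of the 21 were higher and none lower, beside 7.08% of all genes higher, with a median of 0.46. All 10 calls were lost without stable tumour 3. Those of Il12a, Jak1, Jak2, Jak3, Tyk2, Stat4, Stat5b and Traf6 were lost without the low-count filter. Those of Il18rap, Il18bp, Jak3, Tyk2, Stat4, Stat5b and Traf6 were lost in a fit of the 2 groups alone. Without non-responder 1, 2 or 3 there were 2, 1 and 2 calls, without non-responder 4 or 5 or stable tumour 1 there were 6, and without stable tumour 2 or 4 there were 4 and 5. In responders against stable tumours 2 were higher and 9 lower, beside 17.8% of all genes lower, with a median of -0.30. These 11 calls fell to 5 without stable tumour 3, to 6 without responder 4 and to 7 without responder 1, 7 or 8. Jak3 was higher there by 0.75 (adjusted p = 0.0055), while Jak1, a kinase bound to many cytokine receptors, was lower by 0.52 (log2 -0.52, adjusted p = 0.0031), and Casp1, the protease that cleaves the IL-18 precursor, was lower by 0.71 (log2 -0.71, adjusted p = 0.0164). With protein-coding share as a covariate none of these 11 calls held, and without responders 1 and 4 only 3 did. Il18bp, the soluble inhibitor that captures IL-18, was at 5.13 to 11.6 CPM in the control group, 9.50 to 63.7 among non-responders, 40.0 to 104 among stable tumours and 27.2 to 54.5 among responders. Stable tumours exceeded non-responders in Il18bp by 1.21 (adjusted p = 0.0242), a call lost without non-responder 2 or 3 (1.04 in each) or stable tumour 3 (1.01). It was also lost in a fit of the 2 groups alone (1.21, edgeR adjusted p = 0.076).

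Of 5 other receptors that pair with Il2rg, 4 were higher in responders and 4 in stable tumours than in non-responders, beside 25.2% and 7.08% of all genes. The 4 calls in stable tumours fell to 1, Il7r, without stable tumour 3 or non-responder 2, and to 2 without non-responder 3. The 5 differences between responders and stable tumours ran from -0.30 to 0.44. Il7r, the IL-7 receptor of naive and memory T cells, had the largest difference, at 1.90 in responders (adjusted p = 0.000992) and 1.99 in stable tumours (adjusted p = 0.00518), kept in every alternative. Its range was 2.92 to 28.2 CPM among non-responders, 31.3 to 78.5 among stable tumours and 23.8 to 98.3 among responders. A further list held 12 related products and transcription factors: Ifng, Tbx21, Eomes, Gzma, Gzmb, Prf1, Il10, Cxcl9, Cxcl10, Irf1, Irf8 and Batf3. Whether each lies downstream of the axis was not tested. Of these 12, 11 were higher in responders than in controls, 11 in stable tumours and 10 in non-responders. The shares of all genes were 36.1%, 22.2% and 10.6%. The Batf3 call in responders was lost with the protein-coding share as covariate (0.78, edgeR adjusted p = 0.108). Ifng, the cytokine that IL-12 and IL-18 elicit, was at 0.0333 to 0.517 CPM in the control group, 0.475 to 8.25 among non-responders, 4.91 to 8.91 among stable tumours and 1.56 to 6.51 among responders. Between responders and non-responders only Tbx21, the transcription factor T-bet, was called, at 0.97 (adjusted p = 0.0267), a call lost with the covariate (1.02, adjusted p = 0.119) and without non-responder 1, 2 or 3 (0.90, 0.81 and 0.77). Responders had less Cxcl9, a chemokine induced by interferon gamma, than stable tumours (log2 -1.07, adjusted p = 0.0259), a call lost with the protein-coding share as covariate (-0.56, adjusted p = 0.59), without responder 1 (-0.95) or 4 (-0.99), and without both (-0.87, adjusted p = 0.0974).

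**Figure D4:**
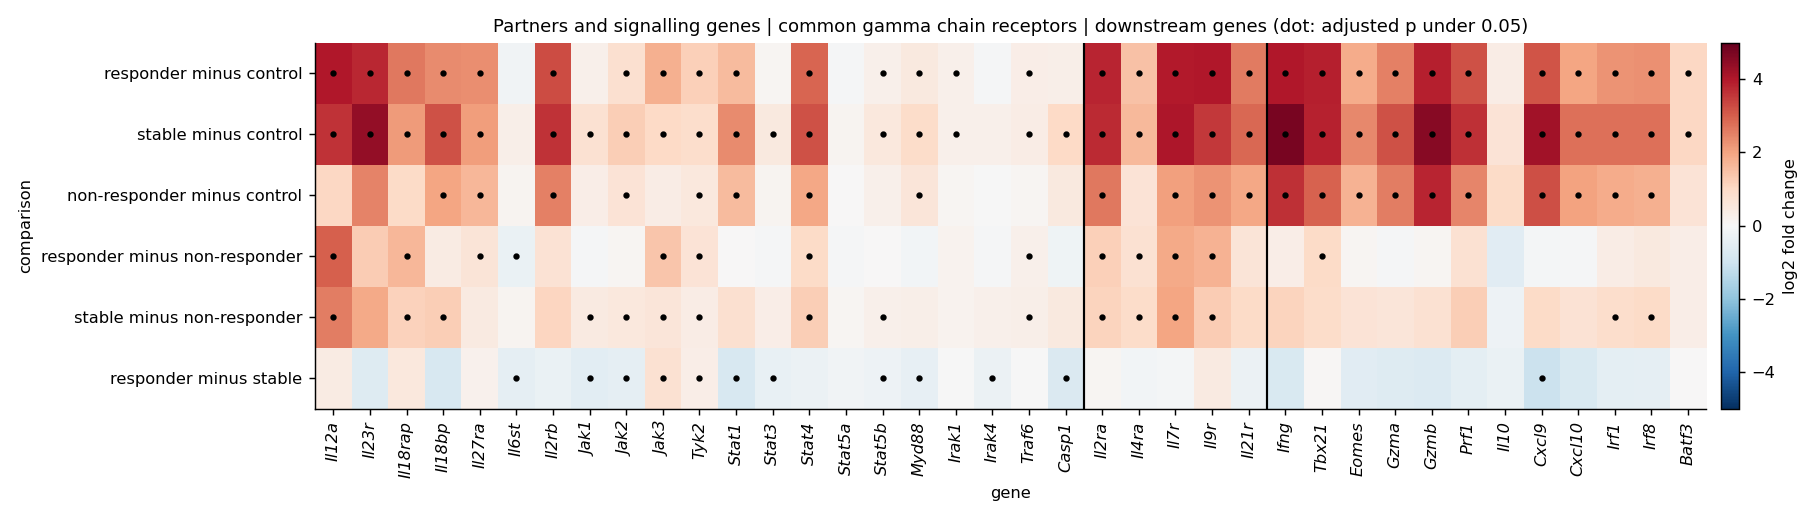
Log2 fold change of the partner and signalling genes, the receptors that share the common gamma chain and the related products and transcription factors (headed downstream genes) (columns) in the 6 comparisons (rows), by colour; a dot marks an edgeR adjusted p under 0.05. Against controls every dot in these 3 lists is on a higher value, and for responders minus stable tumours the called pathway genes are 9 lower and 2 higher.

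The genes most alike to each member were ranked over the 25 tumours by Pearson's r of log2 CPM after subtracting the group means, among 13226 protein-coding genes of at least 1 CPM on average. For Il2rg they were Rassf5 (r = 0.964), Cd3d (0.964) and Cd3g (0.952), the last 2 being chains of the T-cell receptor complex. For Il18r1 they were Slamf6 (0.960), Apol7e (0.954) and Ubash3a (0.946), for Il12b H2-Eb2 (0.904), Slc39a4 and Mgmt, and for Il12rb2 Slc36a2 (0.867), Il2ra (0.863), a chain of the IL-2 receptor, and Csf2rb2. Those of Il15ra included Resf1 (0.862) and Arhgap15 (0.845). The leading genes were Apol10b (0.865) for Il12rb1, Zfp677 (0.870) for Il15, Serpinb9 (0.883) for Ebi3 and Pigz (0.774) for Il18, whose best r was the lowest. Il27, at 0.839 CPM on average, was not ranked. Among the members themselves, the same r over 25 tumours was highest for Il18r1 and Il2rg (0.893), and lowest for Il12rb2 and Ebi3 (0.194). The points of each r share libraries, depth and scaling, so the values are descriptions.

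The deposited RPKM table was set beside the counts, since 5 members overlap another gene. The ratio of the deposited RPKM to the counts per kilobase and M counts was 0.935 for Il12rb2 in stable tumours but 4.00 in controls. In control 1, with no count for Il12rb2, the deposited RPKM was 0.375. Il12rb2 overlaps Serbp1 on the opposite strand, which was at 475 CPM in controls and 248 in responders. For Il27, which overlaps Apobr on the opposite strand, the ratio was 1.50 in controls, 1.21 in stable tumours and 2.16 in responders. The ratio was higher in responders than in stable tumours for all 10 members, such as 1.35 beside 0.997 for Il18r1. The gene lengths and strand setting behind the RPKM are not known here, and the part of overlapping genes was not tested. On log2(RPKM + 1) with limma the non-responders' difference from controls was 0.42 for Il12rb2 (adjusted p = 0.0661) and 0.56 for Il27 (adjusted p = 0.0558), so both lost their call, as did Il12b (0.94), which overlaps no other gene. The same fit gained calls for Il27 among the anti-CTLA-4 groups, given above.

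**Figure D5:**
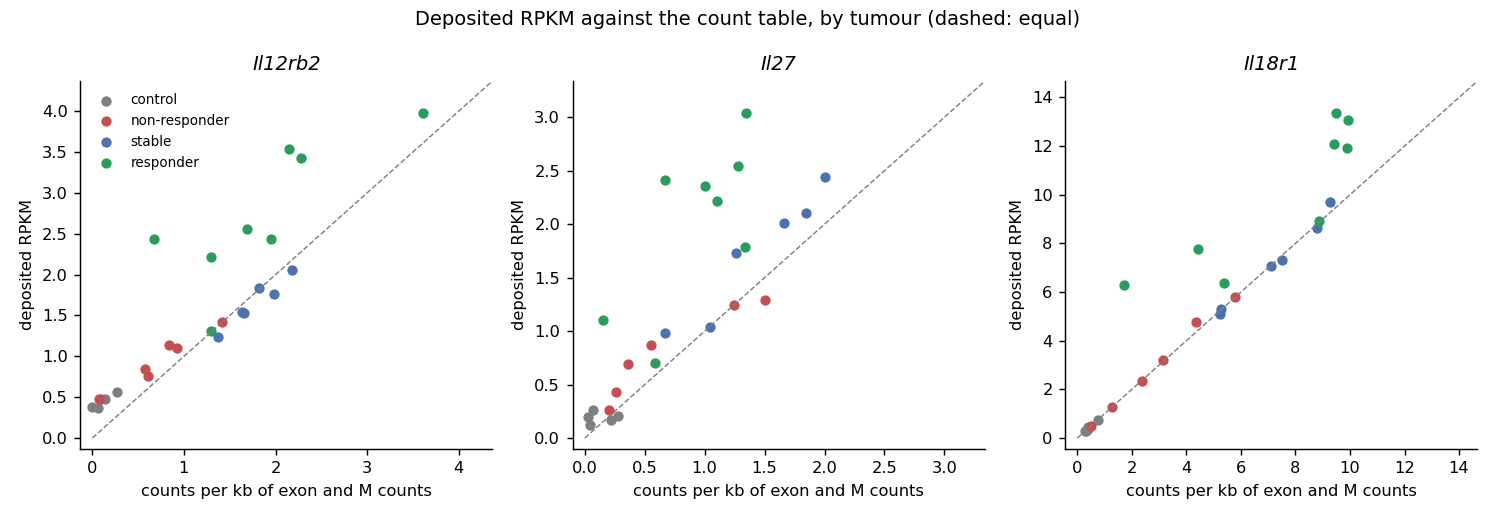
Deposited RPKM (vertical) against counts per kilobase of exon and M counts (horizontal) for each tumour, by gene; the dashed line marks equality. The control tumours lie above the line for Il12rb2, where the mean ratio is 4.00, and close to it for genes such as Il18r1.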

How the data were processed

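The samples were 25 tumours from separate mice, so p-values measure the spread between tumours. The labels name a stranded total RNA kit but give the molecule as polyA RNA, which was not resolved. The submitters' processing notes name bcl2fastq 2.17, Trimmomatic, STAR 2.5.1, RSEM 1.2.22 and mm10. The deposited gene table holds estimated counts (expected counts), not normalized, whose identifiers all matched GENCODE release M21. Of its values 5.64% were not whole (tolerance 1e-06); all were rounded to whole numbers, although whole counts had been planned for. The authors also deposited RPKM values for 19522 symbols, but the lengths and the denominator behind them are not stated.

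From the counts, filterByExpr kept 18031 genes, all 10 members among them, and edgeR 4.0.16 (R 4.3.3, TMM, robust quasi-likelihood) was fitted to all 25 tumours with 4 group means. It was tested on simulated data. Alternatives used limma 3.58.1 on log2 of RPKM plus 1 or 0.1, DESeq2 1.42.0, other filters, scalings and sample sets, and the share of counts in protein-coding genes as a covariate. The fit without responders 1 and 4 (share under 60%), the pair ratios and their settings were added after seeing the data. The members and lists were chosen with earlier results of these data known. All members are named; list genes called in a comparison could be named. The genes most alike were the 3 protein-coding genes of highest r, predicted genes left out; 1 of them is not reported here. Exact permutation tests of 8 against 6 tumours could reach 0.000333.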

Additional observations from a re-analysis of the deposited data

How the results depend on the processing

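Of 2087 member values under alternatives, 1974 kept their direction and side of the threshold, 23 lost a call, 61 gained one and 29 changed sign, none of these among called members. No paired analysis was possible because the labels give the groups no shared replicate numbers.

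Members called, responders against non-responders (3): limma gave 5 on log2(RPKM + 1) and 6 on log2(RPKM + 0.1), and leave-one-out fits 3 to 5. Responders against stable tumours (1): a fit of the 2 groups alone gave 3, the covariate 0, limma 3 and 2, the fit without responders 1 and 4 gave 0, and leave-one-out fits 0 to 3. Stable tumours against non-responders (3): the stricter filter gave 5, the groups alone 1, the covariate 5, limma 6 and 6, DESeq2 7, and leave-one-out fits 2 to 8. Non-responders against controls (8): log2(RPKM + 1) gave 5. The cause was not tested.

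The 29 changes of sign were of member differences not called in the fit of all tumours. For responders minus non-responders, Il12rb1 became 0.053 (stricter filter), 0.27 and 0.37 (limma), with leave-one-out values of -0.22 to 0.30. Il18 became 0.27 (covariate), 0.0063 (protein-coding genes only), 0.11 and 0.15 (limma), 0.0078 (DESeq2) and 0.13 (without responders 1 and 4), with -0.21 to 0.068. Ebi3 became -0.030 without the filter, with -0.25 to 0.34. For responders minus stable tumours, Il15 became 0.016 with the covariate, and Il27 0.13 and 0.18 with limma. Pair ratios are not counted in the 29. For stable minus non-responder tumours, the Ebi3 to Il27 ratio became 0.017 in RPKM and was -0.25 to 0.033 in leave-one-out sets, where the Il15ra to Il15 ratio was -0.0705 to 0.098. Depth limits Il27, with 1 to 5 counts in each control, and Il12a, with 6 counts over all controls.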
